A study of Mus musculus with 19 samples.

Results

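The 5 genes described here are Bdnf, which encodes brain-derived neurotrophic factor, Ntrk2, Ntrk3 and Ngfr, which encode receptors of neurotrophins, and Nrn1, which encodes neuritin. They were taken by symbol from 52636 mouse gene identifiers. They were followed over 1534 of 1824 wells, those labelled as cells of the lateral hypothalamic area (LHA, a hypothalamic region that controls feeding and arousal) in which at least 1000 genes had a count. Cell bodies without fluorescence were picked by hand into 19 plates of 96 wells. They came from 7 males, 6 to 8 weeks old, of the cross Agrp-IRES-Cre x Ai9. In these mice Cre is made by AGRP neurons, whose axons carry the tdTomato fluorescence that outlined the LHA, and every plate shares this genotype, so the plates form a single group without a treatment or control. The labels do not say which plate came from which mouse, so p-values over plates measure the spread between plates and may be too small.

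Neurotrophins are secreted peptides that act on neurons through tropomyosin-related kinase (Trk) receptors. BDNF binds TrkB, the product of Ntrk2, while neurotrophin-3 prefers TrkC, the product of Ntrk3, and the p75 receptor encoded by Ngfr binds all neurotrophins and their precursors. Bdnf transcription follows neuronal activity in many brain regions, and in the hypothalamus BDNF and TrkB restrain food intake. Neuritin is a small membrane-anchored protein whose gene was found as a target of activity and neurotrophins and which promotes neurite growth.

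The wells were split into 4 classes by genes other than these 5. Hcrt wells held at least 1% of their counts in Hcrt, which encodes the wake-promoting orexin peptides, and numbered 1065. Pmch wells held at least 1% in Pmch, the gene of melanin-concentrating hormone, and numbered 68. Of the wells in neither peptide class, 327 had at least 5 counts of Gad1 and Gad2, the enzymes of GABA synthesis, and are called Gad wells, while 71 had fewer and are called non-Gad wells. A further 3 wells passed both peptide thresholds and were left out. The counts are called unique molecular identifiers (UMIs) here because the first read carries one, although no source states whether reads of the same molecule were collapsed. Their median was 45722 per Hcrt well, 59063 per Pmch well, 24486 per Gad well and 24969 per non-Gad well, and the analysed wells of a plate summed to between 1835641 and 5067927 UMIs. Levels are given as CPM, the UMIs of a gene per 1000000 UMIs in all wells of a class on a plate, for plates with at least 3 wells of the class, which left 19 plates for Hcrt, 13 for Pmch, 16 for Gad and 10 for non-Gad wells.

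The classes were checked against marker genes. Wells passed as neurons when they had at least 5 of 8 pan-neuronal markers, more UMIs of these than of any list for another cell type and at most 20% mitochondrial UMIs, which held for 1048 Hcrt wells, all 68 Pmch wells, 325 Gad wells and 62 non-Gad wells. Of the 9 non-Gad wells that failed, 4 stood on plate 14, 4 on plate 19, where they were the whole class, and 1 on plate 9. The 4 on plate 14 had 25 Bdnf UMIs and the 4 on plate 19 had 33, with no Ntrk2 UMI on either plate, and levels in the non-Gad neurons alone are therefore given after those of all non-Gad wells. In the wells labelled as empty or as holding only spike-in RNA, without 1 deep well, Bdnf, Ntrk2 and Ntrk3 had 1 UMI each among 27814 UMIs, while Ngfr and Nrn1 had none. Hcrt itself took a median of 13.5% of UMIs in Hcrt wells, a median of 0.184% in Gad wells and 13% of the few UMIs in the empty wells. Each of the 384 well barcodes was used on several plates, at most 5, and all plates were sequenced in 1 run.

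The 5 genes lie apart in the mouse genome (build GRCm38, GENCODE M21). Bdnf lies on chromosome 2 at 109674700 to 109727007 on the plus strand, with 11 annotated transcripts that share a single 3′ end and begin at 9 different positions. Ntrk2 lies on chromosome 13 at 58806569 to 59133970 on the plus strand, with 10 transcripts and 9 different ends. Ntrk3 lies on chromosome 7 at 78175959 to 78738012 on the minus strand. Ngfr lies on chromosome 11 at 95568818 to 95587735 on the minus strand. Nrn1 lies on chromosome 13 at 36725361 to 36735131 on the minus strand, and 920 bases at its 3′ end overlap Fars2 on the other strand. Antisense genes also overlap Bdnf, Ntrk2, Ntrk3 and Nrn1, and since no source states whether counting used strand, reads of overlapping genes cannot be told apart.

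Counts per gene pool all Bdnf start sites, so a pair of its promoters is shown to make plain what the Bdnf values cannot separate. RefSeq (GRCm38.p6) lists 7 Bdnf start windows of 300 bases, 1 each for Ntrk2 and Ngfr. The letters TGACG, part of the site that the activity-dependent factor CREB prefers, were searched on both strands, and 1 of the 7 Bdnf windows held them, as did 20.8% of all 32851 mouse windows. The 250 bases before the most upstream start and before the start with the match read as follows on the plus strand, with the match, which begins at position -35 from the start, in capitals.
Bdnf upstream start, chr2:109674450-109674699: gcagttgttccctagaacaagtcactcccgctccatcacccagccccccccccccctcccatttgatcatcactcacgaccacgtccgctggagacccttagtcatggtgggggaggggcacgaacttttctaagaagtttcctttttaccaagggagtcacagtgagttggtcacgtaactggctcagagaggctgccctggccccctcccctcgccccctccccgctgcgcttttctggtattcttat
Bdnf start with the match, chr2:109692186-109692435: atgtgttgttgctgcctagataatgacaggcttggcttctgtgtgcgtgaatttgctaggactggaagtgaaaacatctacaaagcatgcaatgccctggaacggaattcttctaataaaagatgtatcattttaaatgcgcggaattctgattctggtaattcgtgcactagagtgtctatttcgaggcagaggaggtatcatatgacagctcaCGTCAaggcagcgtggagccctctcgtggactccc
The match is in these letters only, and the counts do not show which start was in use in any well.

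Bdnf was highest in non-Gad wells and next in Hcrt wells, and it was low in Gad and Pmch wells. Its level in Hcrt wells was 70.8, 157.0 and 211.5 CPM at the lowest, median and highest of 19 plates. In Pmch wells the same values were 0, 14 and 73.3 CPM over 13 plates, in Gad wells 0, 39.5 and 169.4 CPM over 16 plates, and in non-Gad wells 192.5, 527.1 and 1246 CPM over 10 plates. Every non-Gad plate lay above the Hcrt level of its own plate, and every Hcrt level lay above the Pmch and Gad levels of its plate, although between plates the range of Hcrt wells overlapped those of all 3 other classes. The means were 149.1 ± 38.7 CPM in Hcrt wells (SD, n = 19 plates), 24.9 ± 26.3 CPM in Pmch wells (SD, n = 13), 47.6 ± 44.5 CPM in Gad wells (SD, n = 16) and 626.8 ± 353.3 CPM in non-Gad wells (SD, n = 10). In non-Gad neurons alone the mean was 691.5 ± 338.9 CPM (SD, n = 9), and 62.9% of these neurons had a Bdnf UMI. Pmch and Gad wells, the lowest neighbours in this order, overlapped over most of their ranges.

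**Figure D1:**
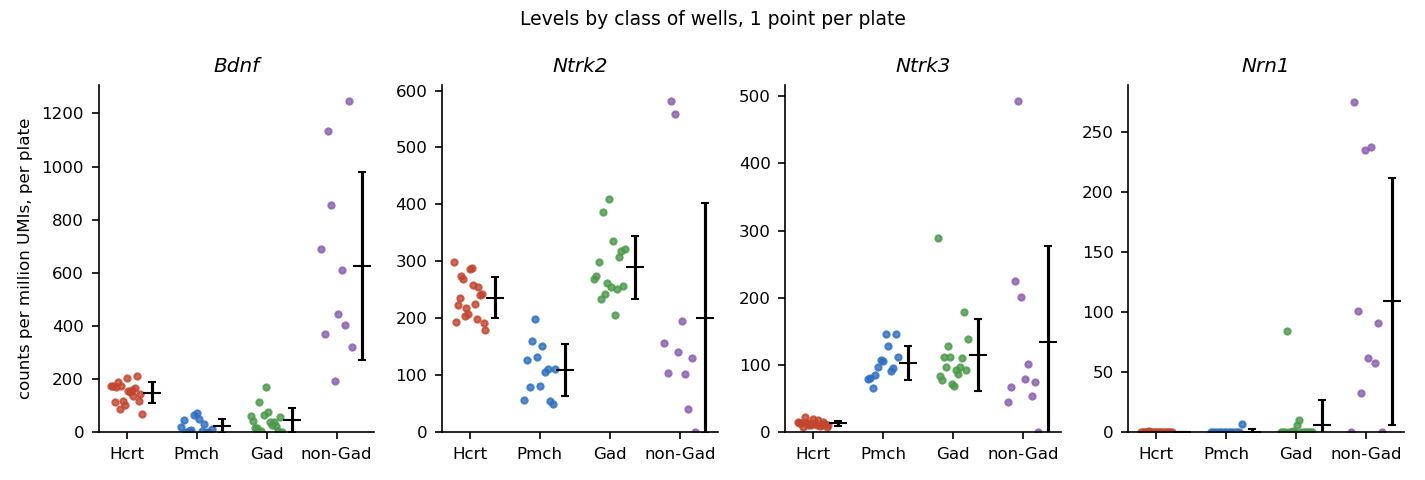
Levels of Bdnf, Ntrk2, Ntrk3 and Nrn1 in CPM by class of wells, with 1 point per plate and, beside the points, the mean with the SD over plates (cut off at 0). Bdnf and Nrn1 were highest in non-Gad wells, Ntrk3 was lowest in Hcrt wells, and Ntrk2 was lowest on average in Pmch wells.

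Bdnf was called at an adjusted p under 0.05 in each of the 4 class comparisons fitted with edgeR. Pmch and Gad wells were not compared with each other. Of the 5 genes, Bdnf, Ntrk2 and Ntrk3 passed the filter on low counts and were tested among 7937 genes with edgeR's quasi-likelihood test, with plate as a block, on 56 sums from 17 plates, since 2 plates had Hcrt sums alone. In Hcrt against Pmch wells, where 14.8% of genes tested were called higher and 11.8% lower, all 3 were called. Bdnf was higher in Hcrt wells by 2.46 ± 0.43 on the log2 scale (SE, edgeR adjusted p = 1.83e-05, higher in 13 of 13 plates). This and the other fold changes follow TMM scaling and not CPM. Against Gad wells, where 15% of genes tested were called higher and 15.1% lower, Bdnf was higher in Hcrt wells by 2.23 ± 0.35 (adjusted p = 3.01e-06, 16 of 16 plates). Against non-Gad wells, where 14.2% were called higher and 5.44% lower, Bdnf was lower in Hcrt wells, with a log2 fold change of -1.62 ± 0.37 (adjusted p = 0.00131, lower in 10 of 10 plates). Of the 4 comparisons fitted, Gad against non-Gad wells had the largest Bdnf difference, where 6.04% were called higher and 1.6% lower and Bdnf had a log2 fold change of -3.86 ± 0.41 (adjusted p = 2.46e-08, lower in 10 of 10 plates). With neurons alone, these 4 values were 2.41, 2.28, -1.69 and -3.97, and all passed the test.

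Plate titles carry 4 prefixes, Q5 to Q8, each with its own set of well barcodes, and each prefix was fitted by itself. For Bdnf in Hcrt against Pmch wells the log2 fold changes were 3.40 in Q5, 0.77 in Q6, 3.05 in Q7 and 4.78 in Q8, of which those in Q5 and Q7 passed the test. Against Gad wells they were 2.37, 1.79, 2.33 and 3.19 in the same order, again past the test in Q5 and Q7. Against non-Gad wells they were -1.80, -1.02, -1.14 and -1.92, and the test was passed in Q5. The direction was thus the same in every prefix, while Q6 and Q8 passed the threshold in none of these 3 comparisons.

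Bdnf was spread unevenly inside each class. At least 1 Bdnf UMI was found in 621 of 1065 Hcrt wells (58.3%, exact 95% interval 55.3 to 61.3), 21 of 68 Pmch wells (30.9%, 20.2 to 43.3), 36 of 327 Gad wells (11%, 7.83 to 14.9) and 46 of 71 non-Gad wells (64.8%, 52.5 to 75.8). These intervals cover counting error only. After each well was thinned at random to 18000 UMIs, which left 1003, 67, 253 and 56 wells, the shares were 53.3% in Hcrt, 17.9% in Pmch, 9.49% in Gad and 60.7% in non-Gad wells. The tenth of wells richest in Bdnf held 49.1% of its UMIs in Hcrt wells, 76.7% in Pmch wells, 99.1% in Gad wells and 59.3% in non-Gad wells. Bdnf in Gad wells was thus a property of few wells, 36 of them, spread over 16 plates. Those 36 wells had 87.1 CPM of Slc17a6, the vesicular glutamate transporter, in 9 wells, against 15.6 CPM in 13 of the 291 Gad wells without a Bdnf UMI. Slc32a1, the vesicular GABA transporter, had 47.9 CPM in Gad wells with Bdnf and 58.8 CPM in Gad wells without it.

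Ntrk2, the TrkB gene, was found in most neurons of every class. Its level was 180.4, 235.2 and 299.9 CPM at the lowest, median and highest plate in Hcrt wells, 49.6, 110.7 and 199.9 CPM in Pmch wells, 206.6, 271.5 and 410.2 CPM in Gad wells and 0, 136.2 and 581.4 CPM in non-Gad wells. A UMI of Ntrk2 was present in 98.3% of Hcrt wells, 95.6% of Pmch wells, 89.9% of Gad wells and 73.2% of non-Gad wells, and thinning gave 94.0%, 79.1%, 87.7% and 71.4% in the same order. Pmch wells lay below Hcrt wells on every plate that had both, whereas Hcrt and Gad wells overlapped. The plate at 0 among the non-Gad sums was plate 19, whose 4 wells were none of them neurons, and in neurons alone the lowest, median and highest non-Gad plates had 70.2, 141.2 and 581.4 CPM, with a Ntrk2 UMI in 82.3% of neurons.

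Ntrk2 was higher in Hcrt than in Pmch wells by 1.19 ± 0.19 on the log2 scale (SE, edgeR adjusted p = 1.27e-06, higher in 13 of 13 plates). Against Gad wells the log2 fold change was 0.06 ± 0.16 (adjusted p = 0.831), and its sign turned under other scalings (-0.045 with DESeq2, -0.044 with RLE factors and -0.32 with no scaling factors), so no direction is given. In CPM, Ntrk2 averaged 236.3 ± 37.8 in Hcrt wells and 289.4 ± 55.2 in Gad wells of the same plates (SD, n = 16), and Hcrt wells were higher in 4 of 16 plates. Against non-Gad wells Ntrk2 was called higher in Hcrt wells, by 0.95 ± 0.23 (adjusted p = 0.00148, 8 of 10 plates), but not with RLE factors (0.62, adjusted p = 0.0547) or without scaling factors (0.40, adjusted p = 0.202). Between Gad and non-Gad wells the log2 fold change was 0.89 ± 0.23 (adjusted p = 0.0104, higher in Gad wells in 8 of 10 plates), and this call was lost in neurons alone (0.58, adjusted p = 0.0576), without plate 8 (0.81, adjusted p = 0.0561) and without plate 19 (0.62, adjusted p = 0.0718). The call between Hcrt and Pmch wells held under each of these scalings and without each plate.

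Astrocytes express Ntrk2 as well, so the astrocyte markers are given beside it. The 6 markers summed to between 95.7 and 145.3 CPM per plate in Hcrt wells, 89.3 and 399.5 CPM in Pmch wells, 316.3 and 638.2 CPM in Gad wells and 139.5 and 509.0 CPM in non-Gad wells. Most of each sum came from Aldoc alone. Over plates Aldoc averaged 461.8 of 474.5 CPM in Gad wells, 171.1 of 183.7 CPM in Pmch wells and 289.4 of 352.5 CPM in non-Gad wells. In Hcrt wells Aldoc averaged 104.2 CPM over the 16 plates shared with Gad wells, beside a sum of 117.9 CPM over 19 plates. The difference in these sums between classes is therefore mainly one in Aldoc. All 6 markers were detected in the Hcrt, Pmch and Gad classes, whereas Gfap and Aqp4 were at 0 in non-Gad wells. Their part in the Ntrk2 values was not tested.

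Ntrk3, the TrkC gene, was scarce in Hcrt wells and common in the other classes. Its level was 8.04, 13.6 and 22.3 CPM at the lowest, median and highest plate in Hcrt wells, 65.4, 97.8 and 146.8 CPM in Pmch wells, 69.1, 96.7 and 289.5 CPM in Gad wells and 0, 77.2 and 492.4 CPM in non-Gad wells. No Hcrt plate reached the lowest Pmch or Gad plate. A Ntrk3 UMI was present in 26.6% of Hcrt wells, 89.7% of Pmch wells, 62.7% of Gad wells and 50.7% of non-Gad wells, and after thinning in 16.6%, 79.1%, 56.1% and 48.2%. In non-Gad neurons alone Ntrk3 had 44.6, 95.2 and 492.4 CPM at the lowest, median and highest plate, with a UMI in 56.5% of neurons. The median Hcrt well was deeper than the median Gad well before thinning.

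Ntrk3 was lower in Hcrt wells in each comparison. The log2 fold change was -2.88 ± 0.23 against Pmch wells (SE, edgeR adjusted p = 2.57e-17, lower in 13 of 13 plates), -2.69 ± 0.22 against Gad wells (adjusted p = 3.44e-17, lower in 16 of 16 plates) and -2.60 ± 0.28 against non-Gad wells (adjusted p = 1.76e-11, lower in 9 of 10 plates). Within the 4 title prefixes these values ran from -3.31 to -2.55, from -3.22 to -2.46 and from -3.19 to -1.53, and the test was missed in Q8 against non-Gad wells alone. Gad and non-Gad wells did not differ past the threshold (0.09 ± 0.27, adjusted p = 0.887), and this sign turned in several settings. The Pmch, Gad and non-Gad levels overlapped.

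Ngfr was close to the limit of detection in these cells. It had 8 UMIs in 5 of 1065 Hcrt wells, 6 UMIs in 5 of 327 Gad wells and none in Pmch or non-Gad wells. For 0 of 68 Pmch wells, 3 counts allow a share of wells with a UMI of up to 4.41%, and for 0 of 71 non-Gad wells up to 4.23%, which does not limit the share of cells that express the gene. Ngfr did not pass the filter, and without a filter no comparison reached the threshold (adjusted p from 0.694 to 1).

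Nrn1, the neuritin gene, was found mainly in non-Gad wells. It had 14 UMIs in 13 Hcrt wells (0.26 CPM over the class), 2 UMIs in 1 Pmch well (0.46 CPM), 86 UMIs in 4 Gad wells (9.30 CPM) and 181 UMIs in 28 non-Gad wells (95.2 CPM). Of the 86 UMIs in Gad wells, 79 came from 1 well on plate 4, and without that well the class had 0.76 CPM. The non-Gad plates held 0, 76.5 and 275.0 CPM at the lowest, median and highest, with 2 of 10 plates at 0. In neurons alone Nrn1 was found in 25 of 62 non-Gad wells, with 175 UMIs.

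Nrn1 did not pass the filter on low counts. Without a filter, 37548 genes were tested, and 1.73% were called lower in Hcrt than in non-Gad wells, 1.05% in Gad than in non-Gad wells and 3.12% in Hcrt than in Gad wells. Nrn1 was lower in Hcrt than in non-Gad wells in 8 of 10 plates, with the other 2 at 0 in the non-Gad wells (edgeR adjusted p = 2.09e-29). As the ratio of class levels, 0.26 CPM in Hcrt wells stood against 95.2 CPM in non-Gad wells. Nrn1 was likewise lower in Gad than in non-Gad wells in 8 of 10 plates, with a log2 fold change of -5.37 ± 0.65 (adjusted p = 9.86e-14). The call between Hcrt and Gad wells (-2.65 ± 0.66, adjusted p = 0.00114) comes with 4 plates higher and 4 lower and with 79 of the Gad UMIs in 1 well. Hcrt and Pmch wells did not differ past the threshold (-0.43 ± 0.75, adjusted p = 0.917).

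Bdnf and Nrn1 overlapped in part among the 62 non-Gad neurons, of which 62.9% had a Bdnf UMI and 40.3% a Nrn1 UMI. There were 27 with Bdnf and no Nrn1 UMI, 13 with Nrn1 and no Bdnf, 12 with both and 10 with neither. Whether the 2 genes shared fewer neurons than these shares alone would give was not tested. Neurons with Bdnf alone reached 137 Bdnf UMIs, and those with both reached 139. Slc17a6 was detected in 23 of the 27 neurons with Bdnf alone, 11 of the 13 with Nrn1 alone, 9 of the 12 with both and 5 of the 10 with neither. Slc32a1 had at most 1 UMI in any of these groups. Otp, a homeobox factor of hypothalamic neurons, had 149.1 CPM with Bdnf alone, 755.3 CPM with Nrn1 alone and 503.6 CPM with both. With neither gene Otp had 274.3 CPM, from 3 neurons. Trh, the gene of thyrotropin-releasing hormone, had 450.2 CPM with Bdnf alone and 1302 CPM with both, each from 5 neurons. It had no UMI with Nrn1 alone or with neither. The groups were made from the 2 genes after counting, so these are descriptions, with no test.

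**Figure D2:**
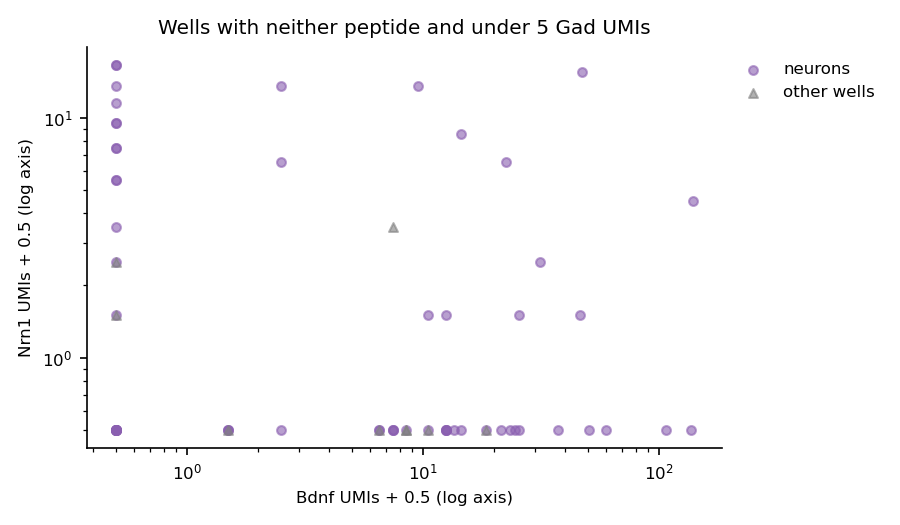
UMIs of Bdnf and Nrn1 in each of the 71 non-Gad wells on log axes, each with 0.5 added so that wells at 0 are shown, with neurons as circles and the 9 other wells as triangles. The 27 neurons with Bdnf alone lie along the lower edge, the 13 with Nrn1 alone along the left edge and the 12 with both between them.

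Over the 309 thinned wells of the Gad and non-Gad classes together, the genes most like Nrn1 by Spearman's rho of log2(count + 1) with plate means removed were Otp (0.56), Sncg (0.44), Slc17a6 (0.42), Pcp4l1 (0.40) and Cbln1 (0.37). The next were Coil, Spon1, Pcsk2, Lypla1 and Lgi1, with rho between 0.32 and 0.36. Among the least like it were Gad2 and Gad1 (both -0.31), Usp25 (-0.29) and Tspo (-0.26). Bdnf had a rho of 0.032 with Nrn1 and ranked 2072 of 5687 genes. The wells share plates, and the Gad genes also made the classes, so these values are descriptions.

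Bdnf varied widely from one Hcrt neuron to the next. At 18000 UMIs per well, 468 of 1003 Hcrt wells had no Bdnf UMI, 11.4% had 1, 8.67% had 2, 11.4% had 3 to 4, 16.4% had 5 to 9 and 56 wells had 10 to 23. The last 56 wells, 5.58% of all, held 29.2% of the Bdnf UMIs. The mean was 2.49 UMIs and the variance was 5.33 times the mean, where counting error alone gives 1 if each count is a separate molecule, and more if reads were not collapsed. Of 4530 genes with a mean of at least 0.5 UMI, Bdnf ranked 26 by this ratio, and of 1010 genes within 1.5-fold of its mean it ranked 6, against a median of 2.02 among those genes. Ntrk2 in the same wells had a mean of 4.43 UMIs and a ratio of 1.84, and Ntrk3 a mean of 0.26 UMI and a ratio of 1.84.

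**Figure D3:**
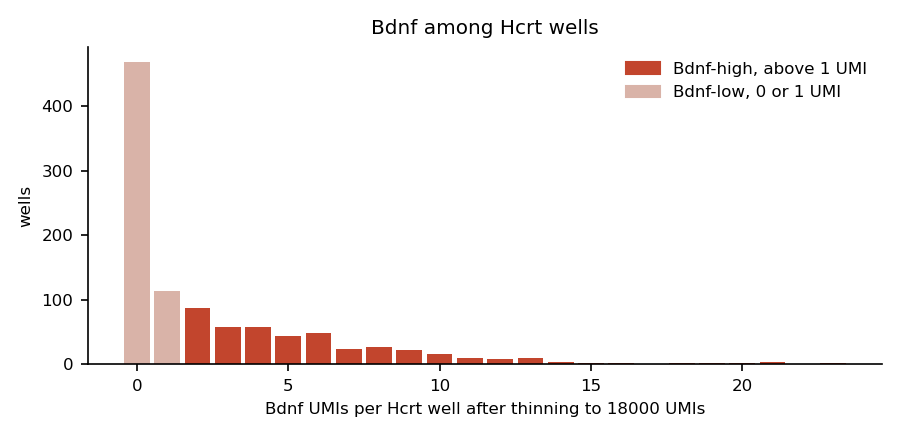
Number of Hcrt wells (vertical axis) at each Bdnf UMI count after thinning to 18000 UMIs per well (horizontal axis), dark for the 421 wells above 1 UMI and pale for the 582 wells with 0 or 1. The 468 wells at 0 form the highest bar, and the counts reach 23.

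The spread was present on every plate. The share of thinned Hcrt wells with a Bdnf UMI was 35.6%, 51.7% and 71.1% at the lowest, median and highest plate, and the ratio of variance to mean ran from 2.52 to 7.09. Differences between plates made up 3.69% of the variance. The median share of UMIs in Hcrt was 13.7% in wells without Bdnf and 12.7% in wells with 10 to 23 Bdnf UMIs, so the wells with most Bdnf did not carry more Hcrt. Before thinning, wells without a Bdnf UMI had a median of 42212.5 UMIs, and those with 10 to 23 had 53664.5.

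To find the companions of Bdnf, the Hcrt wells were parted at the median count of 1 UMI into 421 Bdnf-high wells, above it, and 582 Bdnf-low wells, at or below it. This is a line through a range and not a border between types, since 11.4% of the wells lay on it and 8.67% stood 1 UMI above it. The 46.7% of wells without a Bdnf UMI stood 1 UMI below it. The groups were alike in Hcrt (medians of 13.6% in Bdnf-high and 13.7% in Bdnf-low wells). Depth before thinning had medians of 51720 UMIs in Bdnf-high and 44210.5 UMIs in Bdnf-low wells. Oligodendrocyte markers also differed, with the 6 genes summing to 178.1 CPM in Bdnf-high wells (31.1 to 774.1 over plates) and 579.5 CPM in Bdnf-low wells (24.4 to 2749 over plates), and all 6 were detected in both. In wells that passed as neurons, 419 and 573 of them, the sums were 55.1 and 51.9 CPM, and those wells gave 419 called genes against 409 in all wells.

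Sums of thinned counts per plate were compared over all 19 plates and 5847 genes, with Bdnf itself left out. In Bdnf-high wells 209 genes were higher (3.57% of those tested) and 200 lower (3.42%). Ntrk2 was the only other member that passed the filter, and it showed no change past the threshold. It had 142.9 to 317.5 CPM over plates in Bdnf-high wells and 147.1 to 359.3 CPM in Bdnf-low wells, with a log2 fold change of -0.10 ± 0.06 (SE, edgeR adjusted p = 0.463). Per well, Ntrk2 had a Spearman's rho of -0.039 with Bdnf.

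Calb2, the gene of the calcium-binding protein calretinin, was the gene least like Bdnf in Hcrt wells and fell on every plate. Its level was 67.9, 129.0 and 271.6 CPM at the lowest, median and highest plate in Bdnf-high wells, against 322.7, 451.2 and 858.7 CPM in Bdnf-low wells. The groups did not overlap, with a log2 fold change of -1.72 ± 0.07 (edgeR adjusted p = 7.25e-29, lower in 19 of 19 plates). Calb1, the gene of calbindin, had 718.0, 870.4 and 1137 CPM in Bdnf-high wells, against 1172, 1409 and 1730 CPM in Bdnf-low wells, with a log2 fold change of -0.73 ± 0.04 (adjusted p = 6.12e-25, lower in 19 of 19 plates). Pdyn, the precursor of dynorphin, a peptide that Hcrt neurons release with orexin, averaged 847.9 ± 115.6 CPM in Bdnf-high wells and 1271 ± 186.6 CPM in Bdnf-low wells (SD, n = 19), and its log2 fold change was -0.59 ± 0.04 (adjusted p = 6.46e-19). Spearman's correlation with Bdnf was -0.54 for Calb2, -0.45 for Calb1, -0.42 for Pdyn and -0.32 each for Tmem114 and Rprm, the lowest 5 of 4529 genes.

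Nell1, the gene of a secreted glycoprotein, was most like Bdnf. It had 132.5, 196.0 and 243.6 CPM at the lowest, median and highest plate in Bdnf-high wells, against 24.3, 80.8 and 150 CPM in Bdnf-low wells. It was higher in Bdnf-high wells on 19 of 19 plates, by 1.17 ± 0.09 on the log2 scale (edgeR adjusted p = 4.05e-19), although the ranges over plates overlapped. Ap1s2, a subunit of the AP-1 adaptor that sorts vesicle cargo, averaged 255.2 ± 58.3 CPM in Bdnf-high wells and 126.7 ± 27.9 CPM in Bdnf-low wells (SD, n = 19), with a log2 fold change of 0.97 ± 0.08 (adjusted p = 6.23e-17). The 10 highest values of rho belonged to Nell1 (0.41), Cidea (0.36), Ap1s2 (0.35), Snap25 (0.34), Tmed10 (0.30), Cited1 (0.30), Vgf (0.28), Dgkk (0.28), Nnat (0.28) and Avpr1a (0.26).

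**Figure D4:**
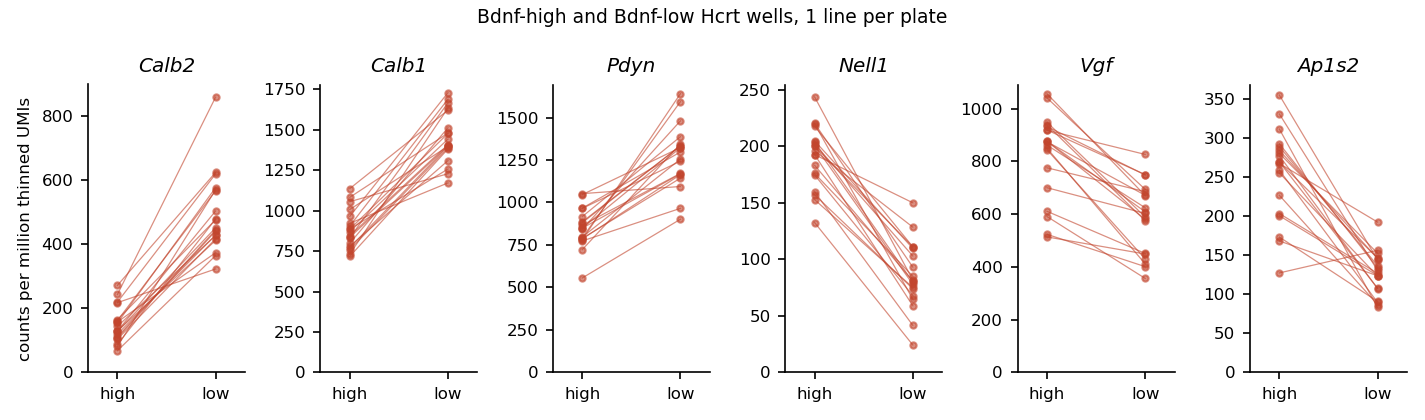
Levels of 6 genes in CPM of thinned UMIs in Bdnf-high (left) and Bdnf-low (right) Hcrt wells, with 1 line per plate. On 19 of 19 plates Calb2, Calb1 and Pdyn were lower and Nell1 and Vgf higher in Bdnf-high wells, and Ap1s2 was higher on 18.

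By size of change, among genes with at least 20 CPM in the higher group and one direction on at least 80% of plates, 233 met the rule, of which 125 fell in Bdnf-high wells and the others rose. The 8 largest rises were in Cbln2, a synaptic organizer (1.55 ± 0.23 on the log2 scale), Cidea, a lipid droplet protein (1.41 ± 0.15), Dgkk, a diacylglycerol kinase (1.34 ± 0.17), Nell1, Plcxd3 (1.14 ± 0.23), Pbxip1 (1.02 ± 0.14), the transcriptional coactivator Cited1 (1.0 ± 0.13) and Ap1s2. Cbln2 averaged 46.0 CPM in Bdnf-high and 13.7 CPM in Bdnf-low wells, and Cidea 74.1 and 28.1 CPM. The 8 largest falls were in the chemokine Cxcl14 (-2.46 ± 0.33), the matrix protein Hmcn1 (-2.11 ± 0.27), the calcium-binding copine Cpne6 (-2.08 ± 0.18), the sodium pump regulator Fxyd7 (-1.93 ± 0.26), the membrane collagen Col25a1 (-1.80 ± 0.25), Calb2, Arpp21 (-1.64 ± 0.21) and the forkhead factor Foxp2 (-1.63 ± 0.20). Several of these genes were scarce. In Bdnf-high wells Cxcl14 averaged 5.79 CPM (median plate 0), Hmcn1 6.71 CPM, Fxyd7 7.72 CPM and Col25a1 8.99 CPM. In Bdnf-low wells the same genes averaged 29.8, 32.8, 31.5 and 32.9 CPM. The size and order of their falls rest on few UMIs in the lower group. Cpne6 averaged 19 CPM in Bdnf-high and 79.4 CPM in Bdnf-low wells, and Foxp2 14.6 and 48.8 CPM, each lower on 19 of 19 plates. The adjusted p was 0.000119 for Plcxd3 and at most 2.62e-07 for the other 15.

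Genes that neuronal activity regulates did not move together with Bdnf. Of 25 on the list, 10 were tested, 3 were higher and 5 lower in Bdnf-high wells, beside 3.57% and 3.42% of all genes tested, with a median log2 fold change of -0.075 against 0.0039 over all genes. The list was chosen with earlier results of these data known. Vgf, a secreted peptide precursor that BDNF induces in other neurons, averaged 824.2 ± 162.3 CPM in Bdnf-high and 585.9 ± 135.1 CPM in Bdnf-low wells (SD, n = 19) and rose by 0.49 ± 0.05 (edgeR adjusted p = 1.88e-14). The synaptic pentraxin Nptx2 rose by 0.45 ± 0.06 (adjusted p = 2.44e-08) and the convertase Pcsk1 by 0.22 ± 0.05 (adjusted p = 0.000367). Fos, an immediate early factor, had 196.4, 276.1 and 425.9 CPM at the lowest, median and highest plate in Bdnf-high wells, against 319.4, 501.6 and 788.2 CPM in Bdnf-low wells. It was lower on 19 of 19 plates, with a log2 fold change of -0.84 ± 0.06 (adjusted p = 2.06e-22). Egr1 (-0.89 ± 0.17), Junb (-0.92 ± 0.22), Fosl2 (-0.47 ± 0.14) and the granin Scg2 (-0.13 ± 0.03) were also lower, with adjusted p from 4.35e-05 to 0.0197.

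**Figure D5:**
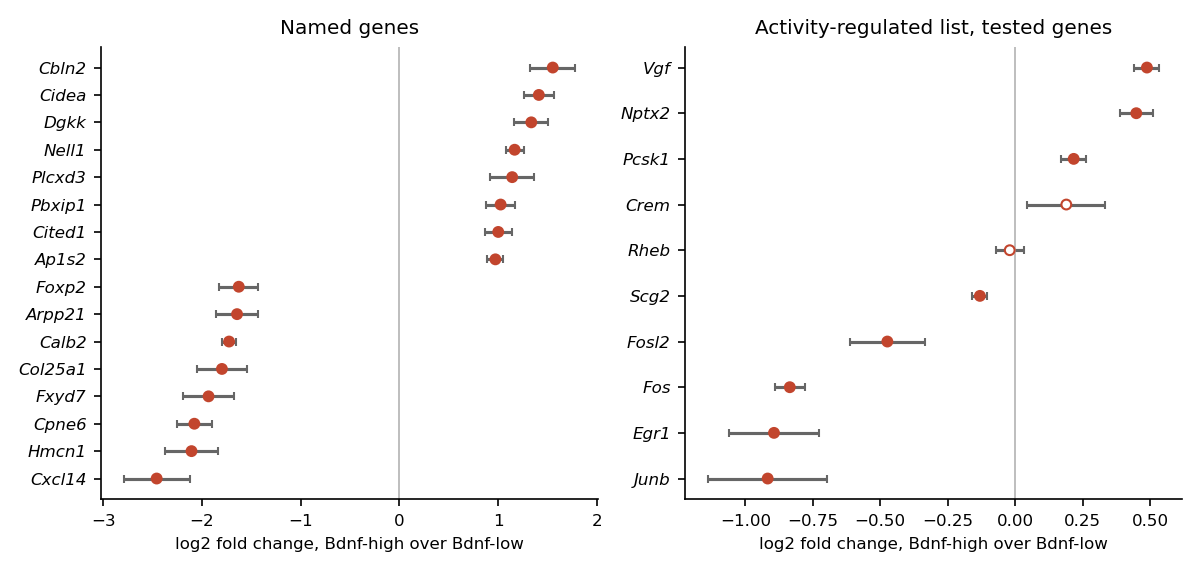
Log2 fold change of Bdnf-high over Bdnf-low Hcrt wells with its SE, for the 16 genes named by size of change (left) and the 10 tested genes of the activity-regulated list (right), filled where the edgeR adjusted p was under 0.05. Vgf, Nptx2 and Pcsk1 lie to the right of 0, and Scg2, Fosl2, Fos, Egr1 and Junb to the left.

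Factors and kinases known to control Bdnf transcription were examined next. Of 17 listed genes 9 were tested, among them Creb1, Mef2d, Usf1, Hdac4, Hdac5, Camk4, Camk2a and Camk2b, and edgeR called none at an adjusted p under 0.05. Over all genes 3.57% were called higher and 3.42% lower, so 0 of 9 is near the background and is no result about these genes. Among genes that earlier results of these data had tied to types of Hcrt neurons, 9 of 14 were tested. Nptx2 and Nts, the neurotensin gene (0.89 ± 0.26, edgeR adjusted p = 0.0406), were higher in Bdnf-high wells, while Pdyn, Cxcl14 and Igfbp3 (-0.36 ± 0.11, adjusted p = 0.0223) were lower.

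Of 46 other genes listed for the neurotrophin pathway, 20 were tested within Hcrt wells, and 1 was higher and 3 lower in Bdnf-high wells, beside 3.57% and 3.42% of all genes tested. The higher one was Pcsk1, and the lower ones were the convertase Pcsk2 (-0.45 ± 0.08, edgeR adjusted p = 1.92e-05), the BDNF-binding transport protein Hap1 (-0.16 ± 0.04, adjusted p = 0.00179) and the sorting receptor Sorl1 (-0.46 ± 0.13, adjusted p = 0.0147). None of the 14 tested adaptors and effectors of neurotrophin receptors was called. Beside the shares over all genes, 0 of 14 is near the background and is no result about these genes.

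The same pathway was counted between classes. Of 47 listed genes, 28 were tested, and in Hcrt wells 7 were higher and 8 lower than in Pmch wells, 7 higher and 7 lower than in Gad wells, and 7 higher and 5 lower than in non-Gad wells, while Gad wells had 3 higher and 2 lower than non-Gad wells. These counts include Bdnf and the receptors. Over all genes tested, the shares called higher and lower were 14.8% and 11.8%, 15% and 15.1%, 14.2% and 5.44%, and 6.04% and 1.6% in the same order. The median log2 fold changes of the list were -0.091, -0.16, 0.0062 and 0.18, beside 0.11, -0.020, 0.16 and 0.18 over all genes tested. The direction of many small calls depends on the scaling. The share of called genes that were higher in Hcrt than in Gad wells was 49.9%, against 37.2% with DESeq2, 37.4% with RLE factors and 14.8% without scaling factors, which move the median of all genes to -0.39. Against non-Gad wells the shares were 72.3%, 35.1%, 36.1% and 15.5%, and between Gad and non-Gad wells 79%, 46.9%, 45.2% and 55.7%.

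Of 6 listed genes for the processing and transport of the BDNF precursor, 5 were tested. Pcsk1 averaged 580.4 CPM in Hcrt and 11.1 CPM in Pmch wells of the same plates and was higher by 5.69 ± 0.35 on the log2 scale (edgeR adjusted p = 5.6e-17, 13 of 13 plates). It was also higher in Hcrt than in Gad wells (3.41 ± 0.25, adjusted p = 9.67e-15) and non-Gad wells (3.17 ± 0.33, adjusted p = 1.04e-09). Pcsk2 averaged 161.0 CPM in Hcrt and 998.4 CPM in Pmch wells and was lower in Hcrt wells, with a log2 fold change of -2.58 ± 0.23 (adjusted p = 7.43e-12), whereas against Gad wells it was higher by 2.17 ± 0.25 (adjusted p = 4.15e-09) and against non-Gad wells it was not called (0.28 ± 0.30, adjusted p = 0.583, higher in 5 of 10 plates). Cpe, a carboxypeptidase of secretory granules, was not called against Pmch wells (-0.29 ± 0.13, adjusted p = 0.0946) or Gad wells (0.10 ± 0.12, adjusted p = 0.573). Hap1 was higher in Hcrt than in Pmch wells by 1.61 ± 0.18 (adjusted p = 7.55e-10) and than in Gad wells by 0.90 ± 0.16 (adjusted p = 1.68e-05). Against non-Gad wells, both Cpe and Hap1 were called higher in Hcrt wells. Among the other receptors, Sort1 was lower in Hcrt than in Gad wells (-1.0 ± 0.28, adjusted p = 0.00339) and than in non-Gad wells (-1.11 ± 0.37, adjusted p = 0.0235), and Sorl1 was lower in Hcrt than in Gad wells (-0.93 ± 0.21, adjusted p = 0.000403).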

How the data were processed

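Single cells were hand-picked into 19 plates and sequenced with Smart-SCRB, whose first read carries the well barcode and a UMI, to a stated 135025 ± 38401 (mean ± SD) reads per cell. The values the authors deposited are counts, whole numbers for each gene in each well. Per the submitters' processing notes, bcl2fastq 2.20, cutadapt 2.1.0, STAR and STARsolo 2.7.5c and the build GRCm38 were used. The collapsing of UMIs and the use of strand are not given in the sources used here. Mouse gene rows were kept, and 3.35% of counts in the analysed wells lay in 103 other rows. Counts were summed per plate and class (at least 3 wells) and tested with edgeR 4.0.16 under R 4.3.3 (filterByExpr, TMM factors, plate as a block and the quasi-likelihood test with robust estimates), two-sided, with Benjamini-Hochberg adjustment over all genes tested and a threshold of 0.05. The SE is the absolute log2 fold change divided by the square root of F. DESeq2 1.42.0, other scalings, filters, thresholds, single prefixes and each plate left out were alternatives, and the fit was tested on simulated data. Wells were thinned with numpy 2.4.6 to 18000 UMIs, without replacement. No doublet caller was run on hand-picked cells. Named genes were the members, up to 4 of a list by p, the 8 largest changes per direction and the 10 highest and 5 lowest rho, without predicted, mitochondrial and ribosomal protein genes. Members and lists were chosen with earlier results of these data known. Some pathway genes were named beyond the 4 after their values were seen. Some genes that these rules or lists hold are not reported here.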

Additional observations from a re-analysis of the deposited data

Results flagged for a closer look

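Ntrk3 had 492.4 CPM in the non-Gad wells of plate 5, which stood apart from the other 9 plates by Dixon's criterion. That sum rests on 15 UMIs in 3 wells. Chance marks about 1 in 20 such groups, and 4 genes were examined.

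Wells outside the comparisons held counts of the members above those of the wells without a cell. The 68 wells labelled qRNA, whose contents are not stated, held 330 Bdnf UMIs in 50 wells (255.0 CPM) and 47 Nrn1 UMIs in 26 wells (36.3 CPM), with 3 Ntrk2 UMIs and 6 Ntrk3 UMIs. A well labelled Empty on plate 15 held 100707 UMIs, of which 48 were Ntrk2, 2 Ntrk3 and none Bdnf, and its Hcrt share was 0.158%. The qRNA wells and this Empty well were left out of every comparison. Bdnf with little or no Ntrk2, as in the qRNA wells, was also seen in the non-Gad wells of plates 14 and 19 that failed as neurons. Those wells stayed in the comparisons of all non-Gad wells and were left out in neurons alone. Whether they hold the same material as the qRNA wells was not tested.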

How the results depend on the processing

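Leaving out each plate in turn kept the direction and the call of Bdnf in all 4 class comparisons, and other settings outside the single prefixes kept them too, except that with at least 5 wells per plate and class Bdnf in Hcrt against non-Gad wells missed the threshold (-1.35, adjusted p = 0.0546). Without each plate, Gad against non-Gad wells gave -0.20 to 0.29 for Ntrk3, 0.62 to 1.24 for Ntrk2 and 318 to 626 called genes (606 with all plates, 396 without plate 13 and 318 without plate 19). Ntrk2 in Gad against non-Gad wells missed the threshold with RLE factors (0.67), no scaling factors (0.72), neurons only (0.58), a Gad threshold of 10 UMIs (0.47) and thinned counts (0.80). Ntrk3 there turned negative with DESeq2 (-0.14), RLE factors (-0.14), no scaling factors (-0.088), neurons only (-0.24), a peptide threshold of 2% (-0.050), a Gad threshold of 10 UMIs (-0.13), peptide counts removed (-0.018) and no plate block (-0.0081). In Hcrt against Gad wells Ntrk2 turned negative with DESeq2 (-0.045), RLE factors (-0.044) and no scaling factors (-0.32). Against non-Gad wells it missed the threshold with RLE factors (0.62) and no scaling factors (0.40). The setting without scaling factors was added after the data were seen.

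Called genes moved from 2386 to 3651 without scaling factors in Hcrt against Gad wells. In Hcrt against non-Gad wells they numbered 1557, against 2423 without a filter and 943 with thinned counts, and in Gad against non-Gad wells 926 without a filter, 388 with at least 5 wells, 352 in neurons, 318 at 10 Gad UMIs and 353 when thinned. Between Bdnf-high and Bdnf-low wells 409 genes were called, 664 with all UMIs of the same wells and 225 without the plate block. Every setting other than single prefixes kept the direction and call of each of the 16 named companions it tested. Within prefixes none changed direction, but the call was lost for 3 of 13 tested in Q5 (Dgkk, Pbxip1 and Col25a1), 3 of 11 in Q6 (Fxyd7, Arpp21 and Foxp2), 2 of 11 in Q7 (Pbxip1 and Fxyd7) and 8 of 16 in Q8 (Cbln2, Plcxd3, Pbxip1, Cited1, Hmcn1, Col25a1, Arpp21 and Foxp2). At 9000 UMIs per well the mean of Bdnf was 1.24 UMIs and its variance 3.22 times the mean, as fewer UMIs were drawn.

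Single prefixes hold 4 or 5 plates. In Q5, Q6, Q7 and Q8 the called genes numbered 698, 861, 709 and 145 for Hcrt against Pmch wells (2109 on all plates), 704, 781, 1373 and, rounded, 1.2e+02 (43 higher and 73 lower) against Gad wells, 541, 513, 609 and 6 against non-Gad wells, 74, 55, 287 and 6 for Gad against non-Gad wells, and 61, 47, 50 and 37 for Bdnf-high against Bdnf-low wells. Bdnf missed the threshold in Q6 (0.77, 1.79, -1.02 and -2.81 in the 4 class comparisons in this order), in Q8 (4.78, 3.19, -1.92 and -5.11) and in Q7 against non-Gad wells (-1.14). Ntrk2 missed it in Q8 against Pmch wells (1.60), in Hcrt against non-Gad wells in Q5 (0.11), Q6 (0.70) and Q8 (1.90), and in Gad against non-Gad wells in Q6 (0.65) and Q8 (2.06), and turned negative there in Q5 (-0.084) and against Gad wells in Q8 (-0.16). Ntrk3 missed it in Hcrt against non-Gad wells in Q8 (-1.53) and turned negative in Gad against non-Gad wells in Q5 (-0.60) and Q6 (-0.29). The causes were not tested. Plate was the replicate block of every fit, so classes and Bdnf groups were compared within plates, and the values without it are given above.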

Other observations

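Bdnf in Pmch wells was also uneven: 21 of 68 wells held all 120 UMIs, and the richest well held 17. Those 21 wells had 2.83 CPM of Nell1, against 17.2 CPM in the 47 Pmch wells without Bdnf, and 85.5 CPM of Calb2, against 144.0 CPM. In non-Gad wells Calb2 had 409.8 CPM in the 46 wells with a Bdnf UMI and 162.4 CPM in the 25 without. Nell1 had 75.02 CPM and 56.75 CPM in the same wells. In Gad wells Nell1 had 72.92 CPM in the 36 wells with a Bdnf UMI and 59.95 CPM in the 291 without, and Calb2 had 121.9 and 65.59 CPM. Calb2 in non-Gad and Gad wells and Nell1 in Pmch wells thus ran opposite to Hcrt wells. Nell1 in non-Gad and Gad wells and Calb2 in Pmch wells ran the same way. These pairs were chosen after the Hcrt values were seen, rest on few wells and carry no test.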
